A study of Mus musculus with 2 samples.

Results

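Transcripts that carry a provisional symbol in the gene list were described in LβT2 gonadotrope cells treated with gonadotropin-releasing hormone (GnRH) or with vehicle. The set was every gene of the analysed count table whose symbol is Gm followed by digits, or ends in Rik, and that had at least 5 unique molecular identifiers (UMIs) over all cells of both libraries. Of 1068 analysed genes, 373 carried such a name, and 77 of these were members. Among the named genes 239 had 0 UMIs and 57 had 1 to 4. Members were thus chosen by their total UMIs, so their abundance is given as a description. The 6 members nearest the threshold, each with 5 UMIs, were 4930444P10Rik, D530049I02Rik, Gm16894, Gm28209, Gm28626 and Gm29183. The 5 genes just below it, each with 4 UMIs, were 6030407O03Rik, Gm28306, Gm28497, Gm29114 and Gm9947.

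LβT2 cells grow without limit in culture, come from the mouse pituitary and stand in for gonadotropes, the cells that secrete LH and FSH. They are 1 line, so any feature of that line is shared by both treatments. Cells at 15 passages were treated for 40 min, either with vehicle or with GnRH at 2 nM, and 1 droplet library of 3′ ends was made from each (GEM Drop-seq). With 1 library per treatment no difference has a replicate check, so no test was run. Every interval is a 95% counting interval and covers counting error only.

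The symbol Gm marks a mouse gene model predicted from sequence, and Rik marks a gene first found as a cDNA in the RIKEN clone collection. Such names stay until a function or a family is assigned, so the group mixes long non-coding RNAs (lncRNAs) with protein-coding genes, some of which have since been named. The label lincRNA is meant for lncRNAs that lie between coding genes, and the label antisense for those that overlap another gene on the opposite strand. The annotation does not divide the members strictly in this way. The lincRNAs Gm15834, D230017M19Rik and Gm26720, for example, overlap Fam126b, Pecr and Hdac4 on the opposite strand. The classes below are these labels. Some lncRNAs also start next to a coding gene and are transcribed away from it.

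By the GENCODE annotation, 60 of the 77 members were non-coding, with 35 lincRNAs and 25 antisense RNAs, and 17 were protein-coding. Members made up 17.4% of the 201 named lincRNAs, 21.9% of the 114 named antisense RNAs and 30.9% of the 55 named protein-coding genes. In comparison, 67.3% of the 695 genes with other names reached 5 UMIs. The lncRNA members were short, with a median of 1294 exonic bases in 2 exon blocks, and 13 of them had a single block. The protein-coding members had a median of 3343 exonic bases in 9 blocks. The other protein-coding genes with at least 5 UMIs had a median of 5542 in 11 blocks. With each member placed once, 33 members overlapped a gene on the opposite strand, 16 overlapped one on the same strand, 8 started within 2 kb of an oppositely directed gene, and 20 did none of these. Whether counting used the strand was not given, so reads of overlapping genes cannot be told apart with certainty.

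Members were rare among the analysed transcripts. Together they held 6439 UMIs in vehicle cells and 5964 in GnRH cells. This was 0.572% (0.558 to 0.586) and 0.533% (0.520 to 0.547) of the analysed UMIs. The most abundant member ranked 199 among all analysed genes. The protein-coding members held 48.2% of the 12403 member UMIs although they were 17 of 77 genes, and the 10 most abundant members held 60.6%. The median cell of either library contained 3 member UMIs. At least 1 member UMI was present in 91.5% of vehicle cells (90.2 to 92.7) and in 92.5% of GnRH cells (91.2 to 93.6). When each cell was thinned to 300 UMIs, so that depth was equal, these shares were 80.3% and 79.4%.

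The most abundant members were protein-coding genes that now have names. 2310035C23Rik (Relch, whose product binds Rab11 on recycling endosomes) had 909 UMIs in vehicle cells and 819 in GnRH cells, in 35.6% and 34.6% of cells. 9430016H08Rik (Maip1, a mitochondrial matrix protein that binds an AAA protease) had 869 and 831 UMIs, in 34.4% and 33.9% of cells. Both pairs of shares lay within each other's counting intervals. The most abundant lncRNA was Gm20342, found in 21.1% of vehicle cells and 14.7% of GnRH cells, with intervals that do not overlap. Over the 29 members with at least 100 UMIs, the median share of cells was 7.43% in vehicle cells and 6.67% in GnRH cells. The 380 other genes with at least 100 UMIs had medians of 35.1% and 35.3%, but they were also more abundant, with a median of 1852.5 UMIs against 301 for the members. Between 100 and 499 UMIs, the medians were 5.05% and 4.66% for the 24 members and 6.30% and 6.93% for the 58 other genes. No cell type that should lack these transcripts was present, so shares of cells include any UMIs from free RNA.

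**Figure D1:**
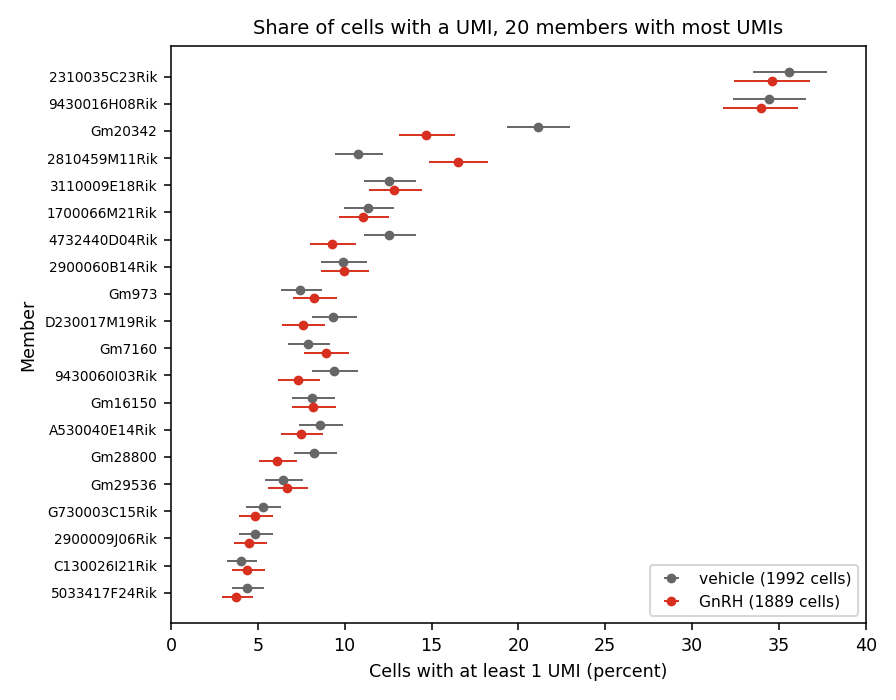
Percent of cells with at least 1 UMI (horizontal axis) for the 20 members with most UMIs, in the vehicle (grey) and GnRH (red) libraries; points are shares and bars their 95% exact binomial intervals. 2310035C23Rik and 9430016H08Rik stand near 35% in both libraries, Gm20342 is lower and 2810459M11Rik higher in the GnRH library, and the rest lie at or below 12.9%.

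The next question was how these transcripts differed after GnRH. UMI sums were scaled to counts per 1000000 (CPM) of the analysed genes, and a member was called by size alone, at 2-fold or more with at least 100 UMIs over both libraries. Of 29 members with enough UMIs, 0 were called higher and 0 lower, against 1.22% and 0% of the 409 genes of that abundance. The median log2 ratio of GnRH over vehicle was -0.14 for the members (interquartile range -0.33 to -0.01) and -0.09 for the 380 other genes (-0.18 to 0.00). The ratio was below 0 in 22 of 29 members, against 74.6% of all 409 genes. The interval lay wholly below 0 in 7 of the 29 (37.9% of all genes) and wholly above it in 1 (7.58% of all genes). An interval narrows with more UMIs, and between 100 and 499 UMIs it lay wholly below 0 in 5 of 24 members and 11 of 58 other genes. The median of all genes moved up by 0.09 under TMM scaling, and 16 of the 29 members were then below 0, against 50.6% of all genes. Under TMM the interval lay wholly below 0 in 5 of the 29 (15.2% of all genes) and above it in 1 (16.1%). The members that no longer had an interval wholly below 0 were 2310035C23Rik and D230017M19Rik.

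**Figure D2:**
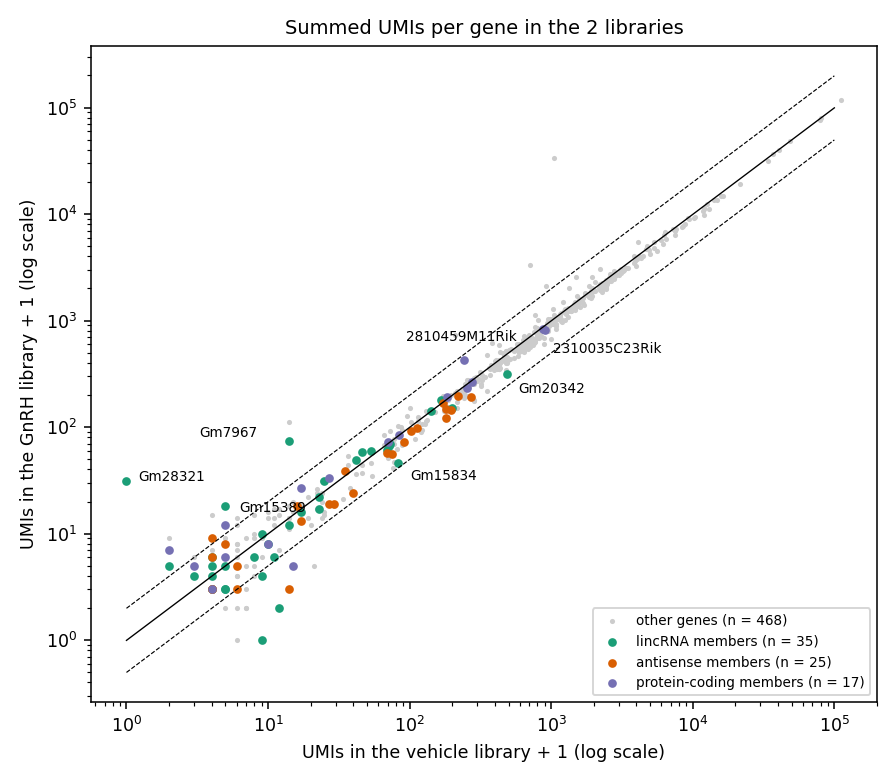
UMIs per gene plus 1 in the vehicle library (horizontal, log scale) and the GnRH library (vertical, log scale) for the 77 members, coloured by annotation, and the 468 other genes with at least 5 UMIs (grey). The solid line marks equal CPM and the dashed lines 2-fold; most members lie along the solid line, Gm7967 and Gm28321 stand above the upper dashed line, and the 8 members at least 2-fold higher and 6 at least 2-fold lower all had fewer than 100 UMIs.

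Larger differences above equality were found among members with fewer than 100 UMIs. Those at least 2-fold higher with at least 20 UMIs were all lincRNAs. When the minimum was 20 UMIs, 3 of 46 members were at least 2-fold higher (1.93% of 467 genes) and 0 were 2-fold lower (0.214%). They were Gm7967, Gm28321 and Gm15389, and none of them overlaps an annotated gene. Each had fewer than 20 UMIs in the vehicle library and passed the minimum only through its GnRH UMIs, so this count is a description and nothing is read from it against the share of all genes. Gm7967 had 13 UMIs in 13 vehicle cells and 73 UMIs in 59 GnRH cells, or 11.5 CPM (6.15 to 19.7) and 65.3 CPM (51.1 to 82.0). The share of cells with a Gm7967 UMI was 0.653% in vehicle cells and 3.12% in GnRH cells, and the log2 ratio was 2.50 (1.64 to 3.48). Gm28321 had 30 UMIs in 26 GnRH cells, which was 1.38% of them (0.901 to 2.01). A UMI was detected in 0 of 1992 vehicle cells, which allows a share of cells with a detected UMI of up to 0.151% by a floor of 3 counts and 0.185% by the exact 95% limit. At this depth it sets no limit on the share of cells that hold the transcript. Its level in GnRH cells was at least 10.1-fold higher when the vehicle count was set to a floor of 3 UMIs per library, a bound that leaves out the counting error of the 30 UMIs. The lower counting limit of the ratio of 30 to 0 UMIs was 7.69-fold.

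These UMIs were spread over many cells. Leaving out the cell with most UMIs of the gene in each library gave a log2 ratio of 2.51 for Gm7967 and 3.18, against the floor, for Gm28321. One or both of the transcripts were found in 82 GnRH cells (4.34%, 3.47 to 5.36), and 3 cells held both. Gm15389 differed in this respect. It had 4 vehicle and 17 GnRH UMIs (log2 ratio 2.10, 0.48 to 4.13), and 13 of the 17 came from 1 cell, whose total of 701 UMIs ranked 476 in its library. Without the top cell of each library, 2 vehicle and 4 GnRH UMIs remained and the log2 ratio was 1.01. Both Gm7967 and Gm28321 are also on the list of GnRH-raised genes that was drawn up from separate bulk RNA-seq samples. The bulk cells were serum-starved and received a higher dose of GnRH for slightly longer, and the list has its own fold threshold. The list held 2 of the 77 members and 5 of all 1068 analysed genes. Members had to reach 5 UMIs whereas the 1068 include genes with 0 UMIs, so these counts are not compared.

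Gm7967 and Gm28321 are 5-block and single-block lincRNAs on the plus strand of chromosome 1, far from each other. Their RefSeq promoters, each from 250 bases before to 50 bases after the start, are shown because they share sequence. Both are 5′ to 3′ on the plus strand of GRCm38.p6, at chr1:98589267-98589566 and chr1:50812225-50812524, and capitals mark stretches of at least 15 bases that both contain.
Gm7967: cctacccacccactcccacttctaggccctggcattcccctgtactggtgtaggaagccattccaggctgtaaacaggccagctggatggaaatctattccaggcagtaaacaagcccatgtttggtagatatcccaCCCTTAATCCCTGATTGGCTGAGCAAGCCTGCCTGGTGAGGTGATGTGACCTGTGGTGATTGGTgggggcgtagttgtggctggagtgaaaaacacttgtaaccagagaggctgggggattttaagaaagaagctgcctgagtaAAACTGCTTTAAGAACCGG
Gm28321: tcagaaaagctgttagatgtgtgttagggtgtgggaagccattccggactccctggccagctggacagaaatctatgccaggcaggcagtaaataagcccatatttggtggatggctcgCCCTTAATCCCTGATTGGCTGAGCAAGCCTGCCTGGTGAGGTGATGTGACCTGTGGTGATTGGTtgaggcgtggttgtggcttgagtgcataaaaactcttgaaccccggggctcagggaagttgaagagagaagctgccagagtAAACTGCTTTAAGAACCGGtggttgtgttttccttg
The windows aligned over 262 columns with 218 identical bases (83.2%), and the longest shared run was 64 bases. Of 32851 RefSeq promoters of the mouse genome, 3 contained that run, those of Gm7967 and Gm28321 and that of Csta2 on chromosome 16. Words of 20 bases shared by both windows occurred in 4 promoters, the additional one being that of Gm23952 on chromosome 13. No other analysed gene had such a word in its promoter. The RefSeq start of Gm28321 lies 2900 bases upstream of its start in GENCODE. Their transcripts also shared 33 words of 31 bases. In the one Gm7967 transcript that carries them, these lay 54 to 433 bases from the 3′ end, and in Gm28321 they lay 1635 to 2124 bases from the end. Reads from such stretches could be assigned to either gene, and their part in the counts was not tested.

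Among members with at least 100 UMIs, 2810459M11Rik had the highest ratio. This protein-coding gene (plus strand, chr1:86045863-86055456, GRCm38, no overlapping gene) had 242 vehicle and 425 GnRH UMIs, or 215 CPM (189 to 244) and 380 CPM (345 to 418). It was 1.77-fold higher in the GnRH library, with a log2 ratio of 0.82 (0.59 to 1.06). The share of cells was 10.7% (9.42 to 12.2) in vehicle cells and 16.5% (14.9 to 18.3) in GnRH cells, and 5.75% and 9.60% at equal depth. The other 7 protein-coding members of that abundance had log2 ratios from -0.14 to 0.07. In 1 of them, 2310035C23Rik, the interval (-0.28 to -0.00) lay wholly below 0, which it did not under TMM or median-of-ratios scaling. Gm973 had 182 and 190 UMIs, 3110009E18Rik 273 and 266, and 1700066M21Rik 252 and 234. C130026I21Rik (83 and 84 UMIs) and A530032D15Rik (69 and 71) overlap each other and several further gene and pseudogene models, so the assignment of their reads is uncertain. As a class the protein-coding members summed to 2958 and 3017 UMIs, a log2 ratio of 0.04 (-0.04 to 0.11), or 0.13 (0.06 to 0.20) under TMM scaling. Without 2810459M11Rik the other 16 summed to 2716 and 2592 UMIs, a log2 ratio of -0.06 (-0.14 to 0.02).

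Summed over the lncRNA members there were 3481 UMIs in vehicle cells and 2947 in GnRH cells, and the log2 ratio of the sums was -0.23 (-0.30 to -0.16), or -0.14 (-0.21 to -0.07) under TMM scaling. The 15 with 20 to 99 UMIs had 313 and 387 UMIs and a ratio of sums of 0.32 (0.10 to 0.54). They include Gm7967 (13 and 73 UMIs), Gm28321 (0 and 30) and Gm15389 (4 and 17), which reached 20 UMIs only through the GnRH library. The ratio of these 15 is therefore a description, and nothing is read from it. Of the 55 lncRNA members with a ratio 67.3% were below 0, against 67.8% of all 534 genes with one. Antisense members contributed most to this difference, with 1862 and 1492 UMIs and a log2 ratio of -0.31 (-0.41 to -0.21), or -0.22 (-0.32 to -0.12) under TMM. The lincRNA sum had a ratio of -0.14 (-0.25 to -0.04), and under TMM its interval included 0 (-0.05, -0.16 to 0.05). This sum leans on Gm20342, the most abundant lincRNA, with 483 and 314 UMIs, and was not recomputed without it. All 11 antisense members with at least 100 UMIs had a ratio below 0, from -0.56 to -0.04, with a median of -0.29. Of all 409 genes of that abundance, 74.6% were below 0. The interval was wholly below 0 in 3 of the 11, Gm28800, 4732440D04Rik and 9430060I03Rik. It was so in 37.9% of all 409 genes and in 11 of the 58 other genes with 100 to 499 UMIs. Under TMM scaling 10 of the 11 were below 0, against 50.6% of all 409 genes, and the median of the 11 was -0.20. The 10 lincRNAs of that abundance were more mixed, with 7 below 0, a median of -0.07 and a range of -0.86 to 0.35. Under TMM scaling 4 of these 10 were below 0. Among the 58 other genes with 100 to 499 UMIs, the range of abundance that holds 24 of the 29 members, the median was -0.13 and 65.5% were below 0.

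**Figure D3:**
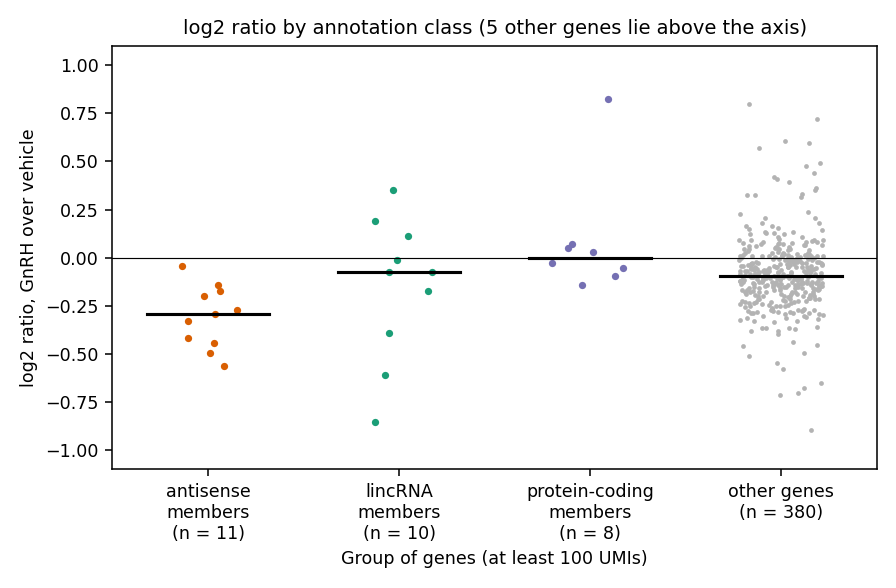
log2 ratio of GnRH over vehicle (vertical axis) for genes with at least 100 UMIs, by annotation class (horizontal axis); points are genes and black bars class medians. The 11 antisense members all lie below 0 with a median of -0.29, and 74.6% of all 409 genes do so too. The 10 lincRNAs and 8 protein-coding members lie on both sides, and 5 other genes lie above the axis.

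Among members with at least 100 UMIs, the lowest ratio was that of the lincRNA Gm15834 (plus strand, chr1:58505148-58523230, GRCm38), with 82 vehicle and 45 GnRH UMIs. This was 72.8 CPM (57.9 to 90.4) and 40.2 CPM (29.3 to 53.8), a log2 ratio of -0.86 (-1.41 to -0.31). Gm20342 (plus strand, chr1:63117118-63126837) had 483 and 314 UMIs, or 429 CPM (391 to 469) and 281 CPM (250 to 313). Its log2 ratio was -0.61 (-0.82 to -0.40), and at equal depth it was present in 11.8% of vehicle and 8.93% of GnRH cells. It is a single-block gene that overlaps another lncRNA, Ino80dos, on the same strand. Gm28800 had 180 and 121 UMIs (-0.56, -0.91 to -0.22), and 4732440D04Rik had 271 and 191 (-0.50, -0.77 to -0.22). 9430060I03Rik had 196 and 143 (-0.45, -0.77 to -0.13), and D230017M19Rik had 197 and 149 (-0.39, -0.71 to -0.08). In each of these 6 genes the vehicle library had the higher count, by 1.31-fold to 1.81-fold in CPM. Above equality, the lincRNAs Gm28187 (45 and 57 UMIs, 0.35, -0.24 to 0.95), 4930558J18Rik (52 and 59, 0.19, -0.37 to 0.76) and Gm7160 (166 and 178, 0.11, -0.20 to 0.42) all had intervals that include 0. 2900060B14Rik, an antisense RNA with 218 and 196 UMIs, had a ratio of -0.14 (-0.43 to 0.14).

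**Figure D4:**
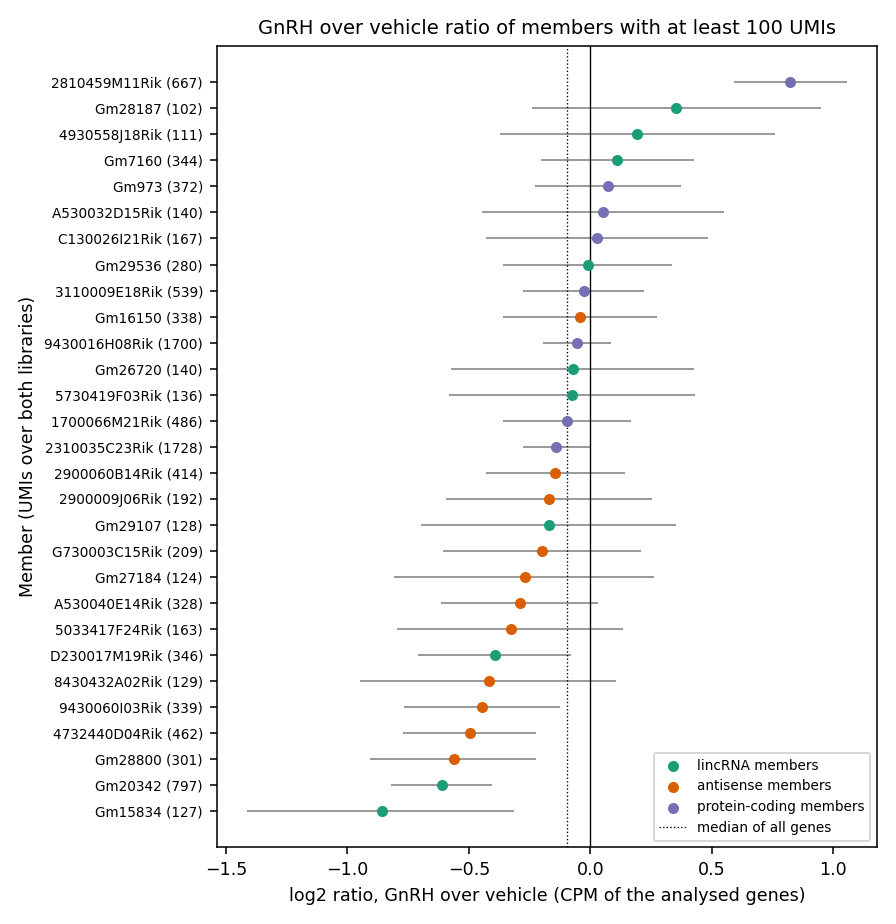
log2 ratio of GnRH over vehicle (horizontal axis) of the 29 members with at least 100 UMIs, ordered by ratio, with UMIs over both libraries in parentheses; points are coloured by annotation, bars are 95% counting intervals and the dotted line is the median of all genes of that abundance. 2810459M11Rik at 0.82 is the only member with an interval wholly above 0, and 7 members have intervals wholly below 0.

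The assay primes on poly(A), so the annotated 3′ ends of the lncRNAs were examined. An AATAAA or ATTAAA hexamer, the signal for cleavage and polyadenylation, was present within the last 50 bases of a transcript in 36 of 60 lncRNA members. It was present in 109 of 255 lncRNAs of the same naming that had fewer than 5 UMIs (42.7%). It was present in 14 of 17 protein-coding members (82.4%) and 427 of 465 other protein-coding genes (91.8%). Any annotated transcript of a gene could supply the hexamer, so genes with more transcripts had more chances, which was not corrected for. The last 60 bases of the longest annotated transcript are shown for the 5 members with the lowest ratios among those with at least 100 UMIs, 5′ to 3′ in the sense of the transcript, with the hexamer in capitals.
Gm15834: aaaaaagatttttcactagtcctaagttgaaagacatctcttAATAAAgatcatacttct
Gm20342: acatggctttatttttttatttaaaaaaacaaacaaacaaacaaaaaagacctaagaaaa
Gm28800: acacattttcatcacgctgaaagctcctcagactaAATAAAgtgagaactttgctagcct
4732440D04Rik: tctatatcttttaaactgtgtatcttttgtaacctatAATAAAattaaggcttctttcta
9430060I03Rik: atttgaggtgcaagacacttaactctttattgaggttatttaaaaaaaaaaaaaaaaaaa
The hexamer is present in Gm15834, Gm28800 and 4732440D04Rik, and it begins 18 to 25 bases before the end. The annotated end of 9430060I03Rik is a run of A, and that of Gm20342 is rich in A without the hexamer.

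Many members overlap or face a better known gene, so both ratios were set side by side. There were 20 pairs of a member and a gene with another name in which each had at least 100 UMIs, involving 18 members. The intervals overlapped in 17 of these pairs. The member had the lower ratio in 14 of 20, and the median was -0.30 for the members and -0.11 for their neighbours. Across the pairs, which share libraries and in some cases members, Pearson's r was 0.08 and Spearman's rho 0.10, as a description. The intervals were apart in 3 pairs. 4732440D04Rik (-0.50) lies antisense to Rb1cc1, an autophagy gene with 1482 UMIs in each library (0.01, -0.10 to 0.11). Gm15834 (-0.86) starts 39 bases from Orc2, a subunit of the origin recognition complex with 1368 and 1324 UMIs (-0.04, -0.15 to 0.07). It also overlaps Fam126b on the opposite strand, which had 1122 and 1090 UMIs (-0.03, -0.15 to 0.09).

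In the following pairs the intervals overlapped, and for low counts they are wide. 9430060I03Rik (-0.45) and Capn10, a calpain protease (-0.37, -0.50 to -0.24), were both lower in the GnRH library. 9430016H08Rik (-0.05) overlaps Tyw5, a tRNA hydroxylase with 415 and 353 UMIs (-0.22, -0.43 to -0.02). 2900060B14Rik (-0.14) lies within Clasp1, a microtubule-binding protein (-0.00, -0.11 to 0.10). D230017M19Rik (-0.39) overlaps Pecr (-0.12, -0.44 to 0.20), and Gm20342 (-0.61) overlaps Ino80dos, with 81 and 61 UMIs (-0.40, -0.90 to 0.10). 5033417F24Rik (-0.33, -0.79 to 0.13) starts 19 bases from Rnpepl1 (-0.30, -0.39 to -0.21). 2310035C23Rik (-0.14) starts 184 bases from Pign, an enzyme of GPI anchor synthesis (-0.28, -0.47 to -0.08). 3110009E18Rik (-0.03) starts 109 bases from Dbi, the acyl-CoA binding protein (-0.08, -0.12 to -0.05), and had 2.32% as many UMIs. Gm27184 (-0.27, -0.81 to 0.26) lies antisense to Tmem185b (0.23, 0.05 to 0.42). Below 100 UMIs, Gm26649 had 22 and 16 UMIs (-0.45, -1.48 to 0.55) and lies antisense to Klf7, a Krüppel-like transcription factor with 4103 and 5411 UMIs (0.41, 0.35 to 0.47). No member lay within 5 kb of Btg2, Coq10b, Neurl3, Fhl2 or Ptprn, the 5 genes called higher. The nearest was 8430432A02Rik, 29239 bases from Fhl2, with 74 and 55 UMIs (-0.42, -0.95 to 0.10).

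**Figure D5:**
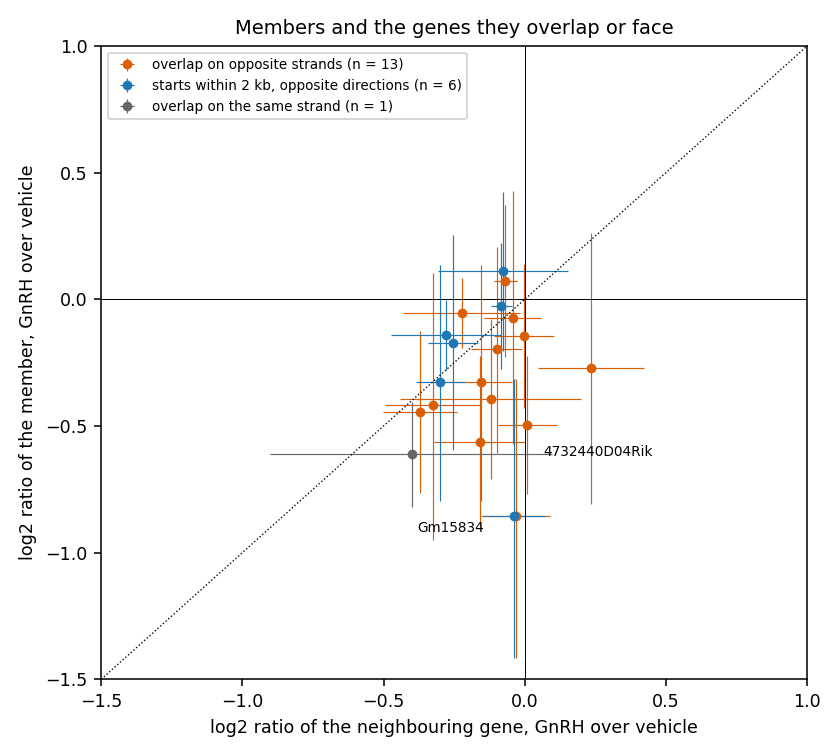
log2 ratio of GnRH over vehicle of a member (vertical axis) against that of the gene it overlaps or faces (horizontal axis), for 20 pairs with at least 100 UMIs in both; bars are 95% counting intervals and the dotted line marks equal ratios. In 14 pairs the member lies below the dotted line, and Gm15834 and 4732440D04Rik lie furthest from it relative to their intervals.

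In total 39 members had a RefSeq promoter, giving 42 windows, and motifs of factors known to act downstream of GnRH were counted in them on both strands. The CRE (TGACGTCA), which binds CREB, was found in 2 of 42 windows (4.76%) and in 1.79% of all 32851 promoters. Those 2 windows belong to 1700066M21Rik and 4930558J18Rik, which start 76 bases apart and point away from each other, and they hold the same site at chr1:57377590-57377597. The window of 1700066M21Rik (plus strand, chr1:57377370-57377669, GRCm38.p6) is shown 5′ to 3′ with the CRE in capitals.
1700066M21Rik: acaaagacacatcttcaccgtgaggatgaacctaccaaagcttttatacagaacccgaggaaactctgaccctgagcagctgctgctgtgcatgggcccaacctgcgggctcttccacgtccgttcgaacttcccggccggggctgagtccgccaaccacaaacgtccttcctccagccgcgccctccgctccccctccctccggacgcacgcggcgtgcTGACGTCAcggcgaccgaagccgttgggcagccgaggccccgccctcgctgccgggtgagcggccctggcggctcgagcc
The ratios on either side of this site were -0.10 (-0.36 to 0.17) for 1700066M21Rik and 0.19 (-0.37 to 0.76) for 4930558J18Rik. The CRE core TGACG, which the full site also contains, was in 19.0% of member windows and 20.8% of all promoters. The AP-1 site TGANTCA was in 1 window, that of Gm973 (2.38%), and in 7.81% of all. The EGR site GCGTGGGCG was in 0 windows and in 0.612% of all. The CArG box, searched in a loose form with any bases between its outer pairs, was in 88.1% of member windows and 73.3% of all. The windows of Gm7967 and Gm28321 held 5 and 3 matches to this loose pattern and no CRE, AP-1 or EGR letters. A match here is a string of letters and not a measured binding site.

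Members with fewer UMIs gave larger and less certain ratios. Among all 71 members with a ratio, 8 were at least 2-fold higher (4.12% of 534 genes) and 6 at least 2-fold lower (2.62%). Of the 71 members 29 had at least 100 UMIs, against 409 of the 534 genes, so these counts are not read as an excess. The neighbouring models Gm29155 and Gm29156, singled out after their values were seen, had 13 and 11 UMIs in the vehicle library and 2 and 1 in the GnRH library. Their log2 ratios were -2.69 (-5.88 to -0.55) and -3.45 (-8.88 to -0.67). A530053M12Rik, also singled out after its values were seen, had 8 vehicle UMIs and a detected UMI in 0 of 1889 GnRH cells. This allows a share of cells with a detected UMI, not of cells with the transcript, of up to 0.159% by the floor of 3 counts and 0.195% by the exact 95% limit. A830018L16Rik, another gene chosen in this way, had 14 and 4 UMIs (-1.80, -3.86 to -0.13).

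To describe cell-to-cell variation, the squared coefficient of variation was divided by its Poisson expectation at each cell's depth. Of members whose mean reached 0.1 UMI a cell, 0 of 8 in the vehicle and 0 of 9 in the GnRH library reached 1.5 times that value, against 5.81% and 6.73% of all genes. Their medians were 1.03 and 1.05, and those of the other genes were both 1.07. With so few members measured, a count of 0 is near the shares of all genes, which were not matched for abundance. Nothing is read from it. Among the members that reached a mean of 0.1 UMI, the highest was 2810459M11Rik, at 1.14 in vehicle cells and 1.42 in GnRH cells. Some members with a lower mean, which were not counted, had higher values, such as Gm15389 (10.2) and Gm7967 (1.61) in GnRH cells. When GnRH cells were divided at the median Btg2 share, Gm7967 had 49 UMIs in the 943 cells above it and 24 in the 946 others, or 88.5 CPM without Btg2 (65.4 to 117) and 45.2 CPM (28.9 to 67.2). Gm28321 had 23 and 7 UMIs, or 41.5 CPM (26.3 to 62.3) and 13.2 CPM (5.30 to 27.1). A gene was counted only where its 2 CPM intervals were apart, a stricter rule than a ratio interval that excludes 0. Of the 46 members with at least 20 UMIs, 0 were higher above the median by this rule (7.73% of the 466 genes of that abundance other than Btg2). A count of 0 does not show that no member was higher. In 2 members the interval was lower (8.15%), and in the other 44, among them Gm7967 and Gm28321, the intervals overlapped. The 2 were Gm15389, with 1 and 16 UMIs, 13 of the 16 in 1 cell, and Gm28800, with 44 and 77 UMIs, or 79.4 CPM (57.7 to 107) and 145 CPM (114 to 181).

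The vehicle library held 1992 called cells with 1126320 UMIs of the analysed genes, and the GnRH library held 1889 cells with 1118763. The median cell had 543.5 and 561 of these UMIs. The analysed genes are the first 1068 of 27998 in the gene list, and the 1062 that could be placed lie on chromosome 1, so the totals are not the depth of the libraries. Of 21 cell type markers only Col3a1, a fibroblast collagen, was among them, and the identity of the cells was not checked further. Cell columns are numbered and carry no barcodes, so barcodes shared by the libraries could not be counted.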

How the data were processed

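LβT2 cells were profiled in 1 vehicle and 1 GnRH library. The deposited values are raw UMI counts per gene and cell, made by the authors with Cell Ranger 1.3 on mm10 per the submitters' processing notes, without normalisation and for called cells. The annotation and the use of strand were not given in the sources used here. An incomplete last row was left out, and 0 columns of per-sample values were unused. UMI counts of 3′ ends need no length correction.

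UMIs were summed per gene and library and scaled to CPM of the analysed genes. The 95% intervals are exact Poisson (sums), Clopper-Pearson (shares of cells or UMIs) and exact conditional binomial (ratios). In ratios a 0 took a floor of 3 counts, and genes with 3 or fewer UMIs in each library got no ratio. Genes with 2-fold differences and at least 100 UMIs were called. Cells were thinned to 300 UMIs, which left 1773 vehicle and 1781 GnRH cells. No doublet caller was run, and the 5% of cells with most UMIs were left out as an alternative. Scripts were tested on simulated data.

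Named members were the 10 with most UMIs, the 5 highest and 5 lowest ratios with at least 100 UMIs, those 2-fold apart with at least 20 UMIs, those on the study's bulk list, protein-coding members with at least 100 UMIs, the 5 with the highest variation in each library, members within 5 kb of the 5 genes called higher, and overlapping genes of the 10 most abundant, of which 1 is not reported here. Further neighbours, low-count members and antisense RNAs that are named in pairs were chosen after their values were seen. Members and lists were chosen with earlier results of these data known.

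Annotation was GENCODE M21 (GRCm38, matched for all 77 members) and RefSeq GRCm38.p6 (50 members). The tools were Python 3.11.15, numpy 2.4.6, scipy 1.17.1, pandas 2.3.3, matplotlib 3.10.9, R 4.3.3, edgeR 4.0.16 (TMM scaling) and DESeq2 1.42.0 (median-of-ratios scaling).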

Additional observations from a re-analysis of the deposited data

How the results depend on the processing

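No paired analysis was possible because only 1 library was made from each treatment. The median log2 ratio of members with at least 100 UMIs was -0.0491 under TMM and -0.0598 under median-of-ratios scaling, -0.0793 with a minimum of 20 UMIs and -0.0834 with a minimum of 5. The number at least 2-fold higher was 3 with a minimum of 20 UMIs and 8 with a minimum of 5, and the number at least 2-fold lower was 6 with a minimum of 5. The share of GnRH UMIs held by members was 0.550% with Btg2 left out of the totals. Thinning to 300 UMIs took the median share of cells to 4.0% (vehicle) and 3.65% (GnRH). Of 129 log2 values of the 21 named members under the alternatives, 129 lay inside the counting interval. The sign changed in 9 of them, in 4 members whose intervals include 0: 9430016H08Rik, 3110009E18Rik, C130026I21Rik and A530032D15Rik. Of 126 shares of cells, 41 lay outside their interval, 39 of them after thinning. Leaving out the cell with most UMIs of a gene, summing the protein-coding members without 2810459M11Rik, and giving intervals and class sums under other scalings were chosen after seeing the data. Depth limits statements on members below 100 UMIs, and 1 library per treatment limits all of them.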
